A study of Saccharomyces cerevisiae with 4 samples.

Results

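The genes described here are 7 a-specific genes of Saccharomyces cerevisiae and 3 genes for the processing of the pheromone a-factor. The a-specific genes are STE6 (YKL209C), STE2 (YFL026W), BAR1 (YIL015W), MFA1 (YDR461W), MFA2 (YNL145W), AGA2 (YGL032C) and ASG7 (YJL170C), and the processing genes are AXL1 (YPR122W), STE14 (YDR410C) and STE24 (YJR117W). They were taken by systematic name, and all 10 were found among the 6256 gene probes of the arrays, each as 1 probe printed in 7 spots. Each of 4 two-colour oligonucleotide arrays carried RNA of 1 biological replicate of the translocant strain D10 Small, labelled with Cy3, against RNA of a pool of its parental strain WT San I, labelled with Cy5. Both strains grew in the rich medium YPD to an optical density of 0.4 to 0.5, and the D10 Small cultures alone also contained kanamycin at 200 mkg/ml. The labels give neither the ploidy nor the mating type of the strains, nor the number of cultures in the pool. The pool counts as 1 control sample, dyes were never exchanged, and drug and strain changed together, so effects of strain, dye and kanamycin on a gene cannot be told apart.

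Yeast cells of mating type a express a-specific genes, which alpha cells and a/alpha diploids keep off through the repressor alpha2 acting with Mcm1, Tup1 and Cyc8. MFA1 and MFA2 encode precursors of a-factor, a lipid-modified peptide. The precursor is farnesylated by Ram1 and Ram2, its last 3 residues are removed by Ste24 or Rce1, and Ste14 methylates the new end. Ste24 and then Axl1 trim the other end before Ste6, an ABC transporter, exports the mature pheromone. STE2 encodes the receptor through which a cells sense alpha-factor, and BAR1 a secreted protease that degrades alpha-factor. AGA2 encodes the adhesive subunit of a-agglutinin on the cell surface, and ASG7 a regulator of signalling by the pheromone-coupled G protein. AXL1 is active in a and alpha haploids, whereas STE14 and STE24 serve other proteins too and are not limited to a mating type.

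Transcripts of all 7 a-specific genes and of AXL1 and STE14 were higher in D10 Small, while STE24 was slightly lower (limma, adjusted p below 0.05). Over all 5794 tested genes, 43.2% were higher and 39.5% lower by the same test. STE6, STE2 and AXL1 stood out, with mean log2 ratios of D10 Small over the pool of 3.65, 2.37 and 2.15. Signal of D10 Small was above background for all 10 genes on all 4 arrays. Signal of the pool was above background on all 4 arrays for STE6, STE14 and STE24, and on no array for STE2, BAR1, MFA2, AGA2 and AXL1. A probe was taken as above background where at least 4 of its 7 spots exceeded the mean of the negative control spots by 2.6 SD in net signal, the spot's brightness less its local background. That limit was 8.21 to 12.1 scanner units for Cy3 and 3.29 to 5.38 for Cy5. The Cy3 channel was brighter throughout, with median raw spot intensities of 304 to 444 against 120.4 to 261, so the channels are compared only after normalisation. The number of arrays limits the precision.

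**Figure D1:**
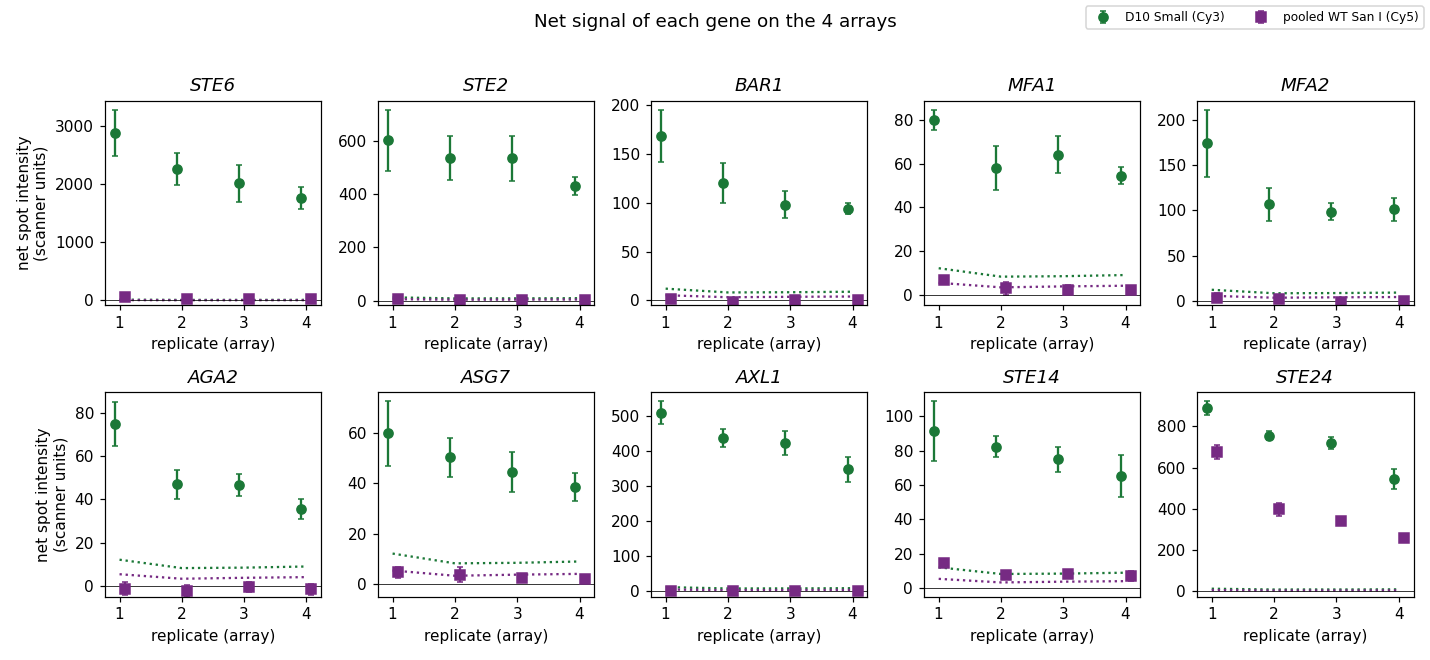
Net spot intensity (scanner units, linear axes that differ between panels) of the 10 genes on each array, as mean and SD over the spots kept for a probe, for D10 Small (circles) and the pool (squares). Dotted lines mark the background limit of each channel in the same colour; pool signal of STE24 lies between 260.2 and 677 units and that of STE6 between 26.45 and 63.8, while that of BAR1 and AXL1 lies below its limit on each array.

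STE6, the a-factor exporter, gave net signals of 2876, 2264, 2013 and 1760 in D10 Small replicates 1 to 4. On the same arrays the pool gave 63.8, 31.5, 29.2 and 26.45, which was above background in all 28 spots. STE6 was the a-specific gene with pool signal above background on every array. Its log2 ratios after normalisation were 4.01, 3.71, 3.48 and 3.41, with a mean of 3.65 ± 0.27 (SD, n = 4) or 12.6-fold. The 95% interval of the limma fit was 3.44 to 3.86, and limma's adjusted p was 3.94e-08. Counted from the most positive ratio down, STE6 had rank 5 of the 5794 tested genes.

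STE2, the alpha-factor receptor, gave net signals of 601, 535, 534 and 430 in D10 Small. The pool gave 4.37, 1.08, 0.65 and 0.85, with 3 of 28 spots above background. Receptor transcript was therefore measured in D10 Small and has only an upper limit in the pool. The log2 ratios were 2.72, 2.37, 2.30 and 2.10, with a mean of 2.37 ± 0.26 (SD, n = 4) and an adjusted p of 1.76e-07 in limma. The limma 95% interval was 2.17 to 2.57. With the pool taken at its own dim signal, STE2 was at least 5.17-fold higher on the mean of the arrays. That limit concerns the dim pool alone: it is a mean over the 4 arrays and leaves out their spread. For STE2, BAR1, MFA2 and AXL1 it equals the fitted fold. Their pool signal, taken after offset and normalisation, lay above the lowest pool signal counted as measured, taken likewise. The limit therefore holds only for the processing used here. BAR1, which acts on the same pheromone by degrading it, gave 168, 120, 97.9 and 93.8 in D10 Small. No pool spot of BAR1 was above background, and its pool means ran from -1.92 to 1.18. The log2 ratios of 1.31, 0.95, 0.70 and 0.72 were all positive and averaged 0.92 ± 0.28 (SD, n = 4), with a limma adjusted p of 4.24e-05. Its 95% interval was 0.70 to 1.14, and by the same limit on the pool BAR1 was at least 1.89-fold higher on the mean of the arrays.

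The a-factor genes were both higher, MFA2 with the larger ratio on all 4 arrays. MFA1 gave net signals of 80.3, 58.1, 64.2 and 54.6 in D10 Small and of 6.47, 2.84, 2.24 and 2.06 in the pool. The pool passed its background limit for MFA1 on 1 array, that of replicate 1, and in 10 of 28 spots. The log2 ratios of MFA1 were 0.60, 0.39, 0.42 and 0.37, with a mean of 0.44 ± 0.10 (SD, n = 4) and a limma adjusted p of 3.14e-05. MFA2 gave 174, 107, 98.7 and 101.1 in D10 Small, and its pool means lay between -1.49 and 3.35. Its log2 ratio was 1.29 on the array of replicate 1 and 0.75, 0.76 and 0.77 on the others, so the mean of 0.89 ± 0.26 (SD, n = 4) has most of its spread from replicate 1. Without that replicate the mean was 0.76. MFA2 passed with a limma adjusted p of 3.43e-05 and a 95% interval of 0.69 to 1.10. On the mean of the 4 arrays it was at least 1.86-fold higher, a value that replicate 1 raised.

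AGA2, the adhesin subunit, gave 74.9, 47.0, 46.7 and 35.6 in D10 Small, and its mean pool signal was below 0 on every array, from -2.33 to -0.60. The log2 ratios were 0.79, 0.48, 0.39 and 0.36, with a mean of 0.50 ± 0.20 (SD, n = 4), a 95% interval of 0.34 to 0.66 and a limma adjusted p of 0.000223. With loess and on the mean of the arrays AGA2 was at least 1.41-fold higher. ASG7 gave 59.7, 50.2, 44.3 and 38.45 in D10 Small and 4.59, 3.65, 2.44 and 2.06 in the pool, which was above background on 2 arrays. Its log2 ratios of 0.48, 0.30, 0.26 and 0.25 averaged 0.32 ± 0.11 (SD, n = 4), with a limma adjusted p of 0.000229. These are the a-specific genes whose call depended on the normalisation. With each array centred on its median in place of the intensity-dependent loess curve, AGA2 had 0.18 with a limma adjusted p of 0.222 and ASG7 0.03 with 0.748, and neither passed. MFA1 kept its call with median centring but had 0.24 in place of 0.44, with a limma adjusted p of 0.0335.

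Among the processing genes, AXL1 resembled STE2 in size. It gave net signals of 510.2, 439.5, 424 and 350 in D10 Small, against pool means between 0.61 and 2.05 and 0 of 28 pool spots above background. The log2 ratios were 2.57, 2.16, 2.02 and 1.85, with a mean of 2.15 ± 0.31 (SD, n = 4), a 95% interval of 1.91 to 2.39 and a limma adjusted p of 5.65e-07. On the mean of the arrays AXL1 was at least 4.44-fold higher. On each of the 4 arrays the ratio of AXL1 was below that of STE2, but the ranges over arrays, 1.85 to 2.57 and 2.10 to 2.72, overlapped.

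STE14, the methyltransferase, gave 91.3, 82.3, 75.04 and 65.0 in D10 Small and 14.6, 7.48, 8.23 and 6.90 in the pool. Both channels measured it on every array, and its log2 ratios of 0.46, 0.41, 0.29 and 0.29 averaged 0.36 ± 0.09 (SD, n = 4), with a limma adjusted p of 5.58e-05. STE24, the CAAX and precursor protease, was the gene with the brightest pool signal relative to its own D10 Small signal. It gave 889, 755, 719 and 544 in D10 Small and 677, 397, 338 and 260.2 in the pool. The log2 ratios of -0.15, -0.11, -0.10 and -0.12 averaged -0.12 ± 0.02 (SD, n = 4), a difference of 1.09-fold, with a limma adjusted p of 0.00540. With median centring STE24 had 0.07 and an adjusted p of 0.251 in limma, so its direction rests on the normalisation.

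**Figure D2:**
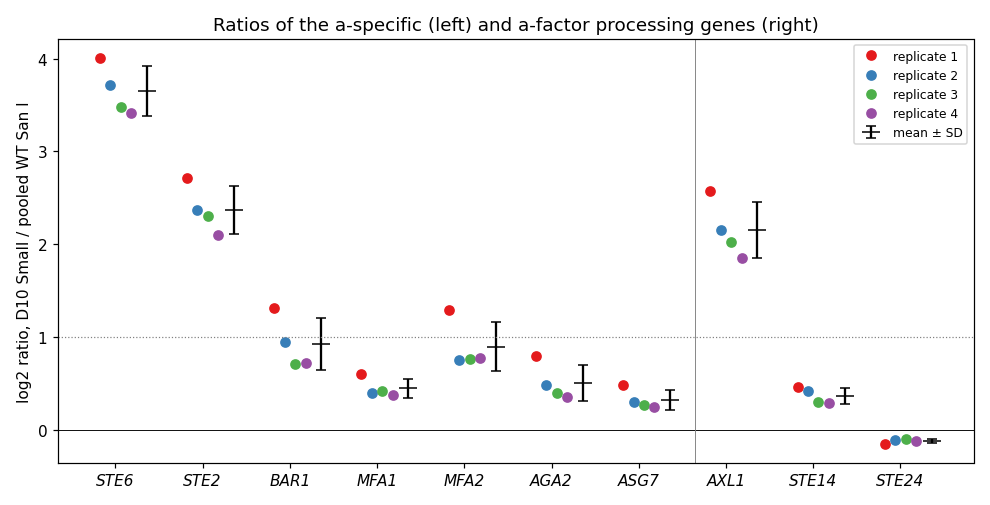
Normalised log2 ratios of D10 Small over the pool for each array (points) with mean and SD over the 4 arrays (bars); the dotted line marks a 2-fold difference. STE6 lies between 3.41 and 4.01, STE2 and AXL1 overlap, and STE24 is the gene with 4 negative ratios.

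Ratios are drawn toward 0 where the pool is dim, that of STE14 included. Those of the 5 genes with no pool signal above background cannot be ranked against those measured in both channels. STE6 had the highest ratio as processed here, but with the net ratio of the scanner software it had 4.86, against 6.46 for STE2 and 6.26 for AXL1. That net ratio leaves out spots with a pool signal of 0, which were 14 of 28 for STE2, 17 for AXL1 and 0 for STE6. Among the 3 genes measured in both channels on every array, STE6 lay above STE14 and STE14 above STE24 with no overlap over arrays. The array of replicate 1 gave the ratio of largest size, and the highest D10 Small net signal, for all 10 genes. That array was also the brightest in both channels, with median raw intensities of 444 and 260.5. The median over the 10 genes was 1.04 there and 0.55 to 0.61 on the other arrays, and the part of the array's brightness in this was not tested. Without replicate 1 the median was 0.58, against 0.70 with all arrays. The 7 spots of a probe agreed in direction: all 28 spots had positive ratios for each of the 9 genes with positive means, and 4 of 28 did for STE24.

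The same 10 genes were read against all others. Of the 10 genes, 9 were called higher and 1 lower, beside 43.2% and 39.5% of all tested genes. A log2 ratio of at least 1 among genes called higher was found for 6.18% of all tested genes and for 3 of the 10, STE6, STE2 and AXL1. The median ratio of the 10 genes was 0.70 and that of all tested genes 0.02. All of the 10 entered the test, but 7 of them (STE2, BAR1, MFA1, MFA2, AGA2, ASG7 and AXL1) had the pool above background on 2 arrays or fewer and entered through D10 Small, a selection that favours positive ratios. Among the 374 tested genes with the pool above background on so few arrays, 53.7% were called higher. The count of 9 is thus a description and no measure of how particular these genes are.

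**Figure D3:**
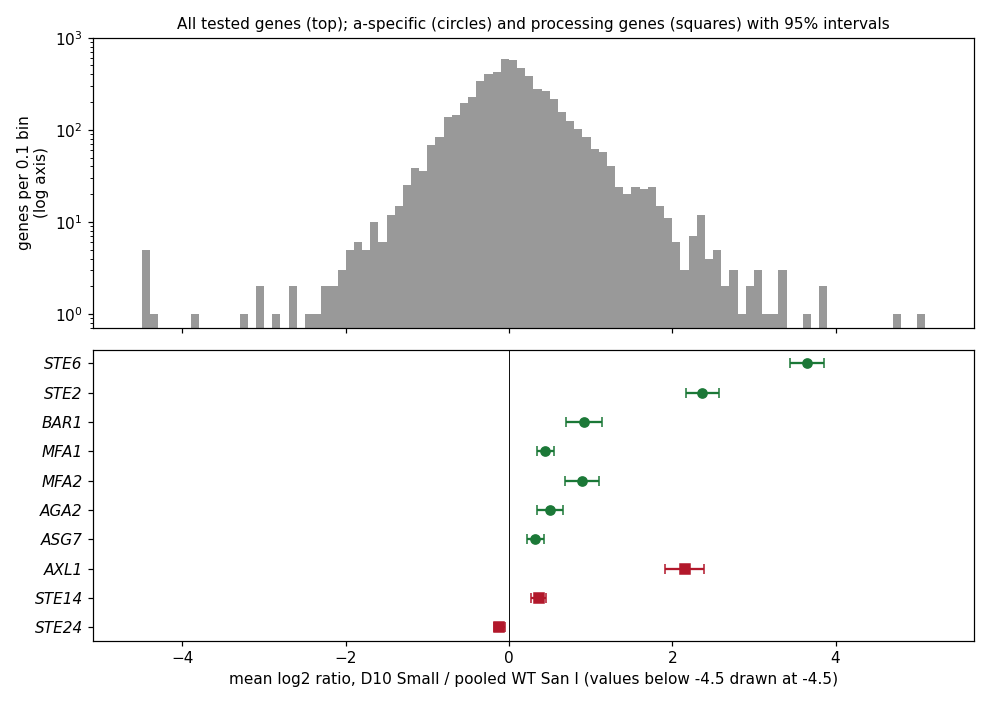
Top, number of tested genes per 0.1 bin of mean log2 ratio (log axis); bottom, mean log2 ratio of the 10 genes with limma's 95% interval, a-specific genes as circles and processing genes as squares. STE6, STE2 and AXL1 fall in the sparse right tail, and the other 7 lie between the percentiles 36.6 and 92.7 of all tested genes.

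The size of the ratios, unlike their direction, depended on how dim signal was treated. An offset of 50 added to each channel draws ratios toward 0 where a channel is near background, as the pool's was for most of these genes. With an offset of 10 the ratio of STE2 was 3.63 in place of 2.37 and that of BAR1 1.88 in place of 0.92. In the value table of the authors, made by steps the labels do not state, STE6 had 4.40 ± 0.09 (SD, n = 4), STE2 4.07 ± 0.17, AXL1 3.81 ± 0.27, BAR1 2.22 ± 0.37, MFA2 2.05 ± 0.25 and MFA1 1.13 ± 0.17. At least 2-fold higher were 6 of the 10 genes with an offset of 10, beside 8.94% of all tested genes, and 7 in the authors' value table, beside 9.94%. STE6, with pool signal above background, had 4.32 with an offset of 10 in place of 3.65. With the same offset STE14 had 0.71 in place of 0.36, and ASG7 0.74 in place of 0.32.

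**Figure D4:**
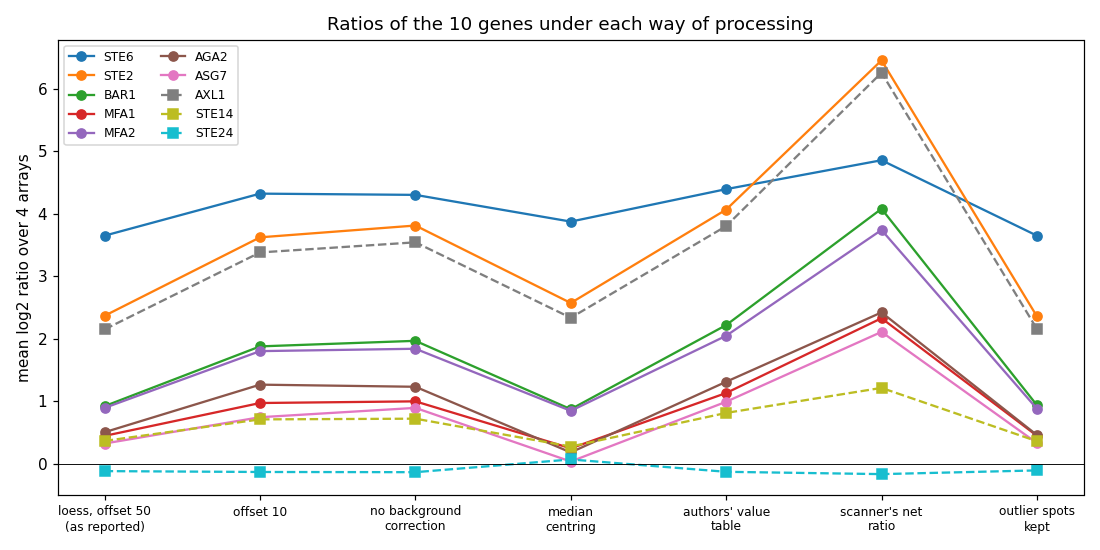
Mean log2 ratio over the 4 arrays for each gene (lines) under 7 ways of obtaining it (horizontal axis). STE2 and BAR1, with little pool signal, move up more than STE6 where the offset is small or absent. MFA1 and ASG7 move up less than STE6 with an offset of 10. AGA2, ASG7 and STE24 lie near 0 with median centring.

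Of 4 further genes of a-factor maturation, 1 was higher, 2 were lower and 1 did not pass, beside 43.2% higher and 39.5% lower over all tested genes. RAM2, the alpha subunit of farnesyltransferase, rose with 0.52 ± 0.03 (SD, n = 4). RCE1, the other CAAX protease, fell with -0.67 ± 0.11, and the metalloprotease gene STE23, whose product can also cleave the precursor, with -0.23 ± 0.08. RAM1, the beta subunit of farnesyltransferase, had -0.06 ± 0.07 and a limma adjusted p of 0.152. With median centring STE23 had 0.0023 and did not pass, while RAM1 had 0.18 and passed as higher (limma adjusted p 0.00952). RAM1 passed as lower in the authors' value table (-0.11, limma adjusted p 0.0463). By the net ratio of the scanner software it also passed as lower (-0.20, limma adjusted p 0.0143), so its call rests on the processing. Of 6 other genes of prenylation and prenylated proteins, 2 were higher (STE18, 1.27, and CDC43, 0.50), 2 lower (RAS1, -0.55, and YDJ1, -0.49) and 2 (BTS1 and RAS2) did not pass. AGA1, which anchors Aga2 in the wall and is not a-specific, fell slightly with -0.17 ± 0.03, against 0.50 for AGA2.

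Of the 4 alpha-specific genes, 2 were tested and both were higher, beside 43.2% of all tested genes. Both genes for the alpha-factor precursor, MF(ALPHA)1 and MF(ALPHA)2, were above background on 0 arrays in D10 Small, with mean net signals of 7.09 and 5.51, and were not tested. STE3, the a-factor receptor, had a D10 Small signal of 32.9 and 0.29 ± 0.07 (SD, n = 4), with the pool not above background, and had -0.12 with median centring. SAG1, the alpha-agglutinin, was measured in both channels and rose with 0.45 ± 0.10. The genes for alpha-factor processing were higher for STE13 (0.24) and KEX1 (0.25) and lower for KEX2 (-0.41). All 10 haploid markers, AXL1 among them, were higher, with a median of 1.79, beside 43.2% of all tested genes. The pool was above background on 1 array or none for 5 of the 10, and 53.7% of the tested genes with the pool above background on 2 arrays or fewer were called higher. In bulk RNA, more cells with a transcript and more transcript per cell cannot be told apart.

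Of 10 mating-type genes and regulators of a-specific promoters, 3 were higher and 5 lower, beside 43.2% and 39.5% of all tested genes. The other 2 did not pass. MCM1, which binds a-specific promoters in every cell type, fell with -0.70 ± 0.11 (SD, n = 4). The corepressor TUP1 fell with -1.25 ± 0.07, while its partner CYC8 rose with 0.35 ± 0.04. STE12, the pheromone response factor, rose with 0.95 ± 0.10. The probes for alpha2, MATALPHA2 and HMLALPHA2, read -0.66 ± 0.04 and -0.67 ± 0.04, and that for HMRA2 read -0.57 ± 0.06. These loci share sequence, so these 3 readings may hold the same transcripts. Net signals of the MATALPHA2 probe averaged 399 in D10 Small and 327 in the pool, so sequence read by this probe was detected in both. From which of these loci that signal came was not tested. The alpha1 probes MATALPHA1 and HMLALPHA1 gave -0.04 ± 0.03 and 0.01 ± 0.04 and did not pass, and with median centring they read -0.48 and -0.44 and passed. HMRA1, the a1 gene, rose with 0.31 ± 0.17. TUP1 and all these mating-type loci lie on chromosome III by systematic name, where the median ratio was -0.81 over 54 tested genes of the left arm and -0.31 over 96 of the right. The part of that shift in these values was not tested. Of the silencing genes that keep the spare mating-type loci off, SIR1 was higher (0.38) and SIR2, SIR3 and SIR4 lower (-0.78, -0.26 and -0.28), SIR3 not passing with median centring (-0.07).

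**Figure D5:**
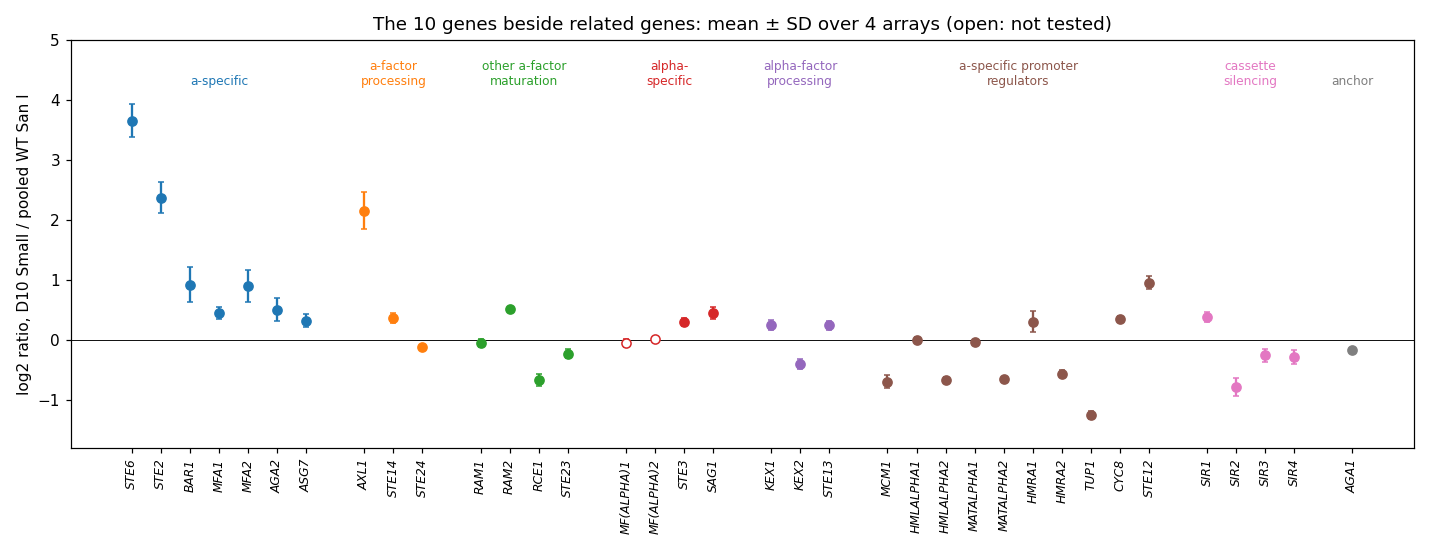
Mean log2 ratio with SD over the 4 arrays for the 10 genes and the related genes by list; open symbols are genes not tested for lack of signal. The a-specific list lies above 0 throughout, while maturation, regulator and silencing genes fall on both sides.

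None of the 10 genes lies on chromosome III, and they are spread over 8 chromosomes by systematic name. Their ratios were set beside those of the 10 nearest tested genes on the same arm. For STE6, on the left arm of XI, these neighbours had a median of 0.01 and a highest value of 0.94, far below 3.65. For STE2, on the left arm of VI, and AXL1, on the right arm of XVI, the medians were 0.29 and 0.01 and the highest values 1.08 in both. BAR1, MFA1, MFA2 and AGA2 also exceeded all 10 of their neighbours, whose highest values were 0.34, 0.08, 0.75 and 0.43. ASG7, STE14 and STE24 lay within the range of theirs.

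Genes with the most similar ratios over the 4 arrays were found by Euclidean distance among the tested genes outside the 10. Nearest to STE6 were STE4, the G protein beta subunit, at a distance of 0.57, then YER138W-A at 0.58 and ECM13 at 0.70. Nearest to STE2 were PDE1 at 0.22, PRM5 at 0.23 and ADH5 at 0.26. NCS6, SPE2 and CIT3 were nearest to MFA1, at 0.05, 0.05 and 0.06. This likeness rests on 4 values each, which share the pool and the dye orientation. The ratios of STE2 and MFA1 also moved with the offset, to 3.63 and 0.97 with an offset of 10. Their pool was above background on 0 and 1 arrays, against 4 for PDE1, PRM5 and ADH5. Which genes would be nearest with another offset was not tested.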

How the data were processed

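The deposited scanner files hold, per the file headers, the intensity of every spot and its local background in each channel, with 43792 gene spots and 153 negative controls per array, all on 1 slide. Per the labels' protocols, 250 ng of RNA was amplified and labelled. The authors' deposited log2 ratios were made by steps, and with scanner software, not given in the sources used here. Their Pearson's r with the ratios of this report, over genes, was 0.964 to 0.971, so they too give D10 Small over the pool. Mean intensities were corrected with limma 3.58.1 (normexp, offset 50) in R 4.3.3 and normalised within arrays by loess, with control spots at weight 0. Spots beyond the quartiles of their probe by about 1.4 interquartile ranges were left out. Genes above background in a channel on at least 3 arrays were fitted with lmFit and eBayes against 0, with Benjamini-Hochberg adjustment over 5794 genes, and 462 genes were not tested. Where a channel was dim on all arrays, a bound divides the bright channel by the dim signal, or by the lowest signal still above background if that is higher, both after loess and Aquantile. Dye bias can enter such bounds. A table of assembly R64 gave symbols for 5756 of 6256 probes. The procedure was tested on simulated data with log2 changes of at most 1 in genes above background in D10 Small. No simulated gene was set to lose its pool signal, so larger ratios against a pool at background were not covered. The 10 genes and the lists were chosen with earlier results of these data known. Named are these 10, the genes of the related lists, and the 3 genes nearest in ratio to each of STE6, STE2 and MFA1. P-values measure the spread between 4 arrays that share 1 pool.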

Additional observations from a re-analysis of the deposited data

Results flagged for a closer look

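The 48 tested genes among the 10 genes and the related lists were screened. Of these, 3 had 1 array far from the other 3, by a criterion that chance meets in about 1 of 20 groups. MFA2 had 1.29 in replicate 1 against 0.75 to 0.77 in the others. STE3 had 0.39 in replicate 1 against 0.26 in each of the others. RAM2 had 0.57 in replicate 3 against 0.50 to 0.51. MFA2 passed the test without replicate 1 as well, with a log2 ratio of 0.76.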

How the results depend on the processing

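The 9 higher calls were kept under every alternative except median centring, where AGA2 (0.18) and ASG7 (0.034) did not pass and 7 remained, as a count of the same 10 genes. STE24 was lower under all alternatives except median centring, which gave 0.067 and left 0 of the 10 genes lower. Median centring also gave RAM1 0.18, STE23 0.0023, STE3 -0.12 and HMLALPHA1 -0.44, each of opposite sign to the loess value. The median ratio of the 10 genes, 0.70, was 1.54 without background correction, 1.53 with an offset of 10, 1.68 in the authors' value table and, by the net ratio of the scanner software, 3.08, from which spots with a net signal of 0 in a channel were left out. The offset draws dim genes toward 0 by construction. What else sets these settings apart was not tested. All arrays share 1 slide, so no slide block could be fitted. No paired analysis was possible because all samples form 1 group against a common pool. Where the pool was above background on no array (STE2, BAR1, MFA2, AGA2 and AXL1), the data give a limit on its level and not a measured one.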
